A study of Homo sapiens with 12 samples.

Results

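The genes described here are 59 zinc finger genes of the distal long arm of chromosome 19, all with symbols that start with ZNF. They were given as a list of symbols, put together by family and position, and all 59 were found among the 52889 gene entries of the count table. No measured value was part of this rule, but the list was chosen with earlier results of these data known. RefSeq (GRCh38.p14) places each of them on chromosome 19 as a protein-coding gene. In their order along the chromosome they fall into a proximal block of 35 genes from ZNF649 to ZNF331 (chr19:51889235-53580269) and a distal block of 24 genes from ZNF583 to ZNF606 (chr19:56404014-58003346), separated by the largest gap between neighbours, 2823740 bases.

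Most genes of this cluster encode C2H2 zinc finger proteins of the KRAB type. The row of zinc fingers reads a DNA sequence, often one within a transposable element, and the KRAB domain binds TRIM28, which brings in the histone methyltransferase SETDB1 and heterochromatin protein 1 and thereby silences the bound site. The genes arose by repeated duplication and lie next to each other, and the clusters are themselves known to carry repressive histone methylation over their zinc finger exons while their promoters can stay open. Because neighbours are near-copies of each other, reads from their shared zinc finger exons may be split between genes or lost in the authors' counting, and the level of a single gene is uncertain to that extent.

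ATAC-Seq measures how often the Tn5 transposase cuts the DNA of isolated nuclei, so that accessible chromatin yields more reads. HEK293T, a line from human embryonic kidney, had been stably transfected with Sleeping Beauty vectors, and 4 groups of 3 biological replicates were prepared. Mock cells carried the empty inducible vector (pSBTet-GP), d0 cells expressed MLL-AF4 constitutively, and d3 cells expressed MLL-AF4 and received doxycycline at 1 µg/ml over 48 h, by which AF4-MLL is induced. The d28 cells are labelled with constitutive MLL-AF4 alone, and the paper adds that AF4-MLL had been shut down in them for 25 days. MLL-AF4 was therefore common to d0, d3 and d28 and absent from Mock cells. According to the paper's methods, the MLL-AF4 line was selected with puromycin and cultivated for weeks, and AF4-MLL was brought in by a second, transient transfection, with blasticidin given alongside doxycycline. When the Mock samples were taken is not given in the sources used here. The extract protocol in the labels speaks of RNA purification, although the libraries are labelled as ATAC-Seq and the same protocol describes nuclei and transposase. In such bulk samples fewer cells with an open gene and a less open gene in every cell cannot be told apart.

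The windows directly upstream of the transcription starts are the places where these genes are most likely to be open, and they are shown for some of the genes on which the results turn. RefSeq windows of 250 bases before the most upstream start were at hand for 52 of the 59 genes, and 10 of these genes had more than 1 start. ZNF610, ZNF471, ZNF480, ZNF552, ZNF649, ZNF28 and ZNF665 had no entry. For 7 genes, ZNF606 and ZNF749 among them, the start in the table lies inside the gene span, and their windows are counted but not shown. The sequences below run 5′ to 3′ on the strand of the gene, with every CpG in capitals. ZNF432, with the most counts of the 59 genes (chr19:52048839-52049088, minus strand), ZNF415, with the fewest (chr19:53132911-53133160, minus strand), and ZNF611 (chr19:52735045-52735294, minus strand) belong to the proximal block. ZNF71 (chr19:56595052-56595301, plus strand), ZNF586, with the highest level per kb (chr19:57769426-57769675, plus strand), and ZNF772 (chr19:57477567-57477816, minus strand) belong to the distal block.
ZNF432: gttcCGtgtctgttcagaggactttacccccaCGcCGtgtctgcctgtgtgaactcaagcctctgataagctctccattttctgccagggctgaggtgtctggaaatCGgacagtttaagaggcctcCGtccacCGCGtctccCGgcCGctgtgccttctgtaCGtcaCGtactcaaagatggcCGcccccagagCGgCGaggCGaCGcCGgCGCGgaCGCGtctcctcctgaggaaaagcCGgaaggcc
ZNF415: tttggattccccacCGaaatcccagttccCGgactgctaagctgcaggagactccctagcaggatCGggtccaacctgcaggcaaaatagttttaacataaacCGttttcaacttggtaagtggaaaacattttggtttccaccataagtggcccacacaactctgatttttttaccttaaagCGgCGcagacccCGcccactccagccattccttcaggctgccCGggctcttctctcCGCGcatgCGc
ZNF611: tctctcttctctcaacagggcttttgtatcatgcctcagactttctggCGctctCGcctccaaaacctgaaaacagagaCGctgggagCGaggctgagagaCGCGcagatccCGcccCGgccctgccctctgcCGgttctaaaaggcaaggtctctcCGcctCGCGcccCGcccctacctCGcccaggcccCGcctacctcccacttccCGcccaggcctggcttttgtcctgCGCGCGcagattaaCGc
ZNF71: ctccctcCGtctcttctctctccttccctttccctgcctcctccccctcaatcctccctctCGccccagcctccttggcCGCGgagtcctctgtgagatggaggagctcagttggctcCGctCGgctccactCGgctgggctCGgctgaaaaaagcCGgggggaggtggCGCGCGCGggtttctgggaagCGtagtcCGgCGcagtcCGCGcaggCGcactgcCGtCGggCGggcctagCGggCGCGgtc
ZNF586: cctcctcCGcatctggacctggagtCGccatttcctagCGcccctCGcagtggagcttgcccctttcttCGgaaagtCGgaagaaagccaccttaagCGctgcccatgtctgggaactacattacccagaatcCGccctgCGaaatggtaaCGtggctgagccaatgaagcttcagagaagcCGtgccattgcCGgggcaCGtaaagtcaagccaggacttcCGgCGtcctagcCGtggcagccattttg
ZNF772: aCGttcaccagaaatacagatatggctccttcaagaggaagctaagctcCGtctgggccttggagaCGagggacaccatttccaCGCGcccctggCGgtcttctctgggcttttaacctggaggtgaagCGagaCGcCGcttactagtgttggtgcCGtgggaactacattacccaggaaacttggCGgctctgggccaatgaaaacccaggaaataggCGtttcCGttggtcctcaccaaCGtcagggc

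All 6 windows held more CpG than the median window of all genes. ZNF71 holds 25 CpG and 69.6% G and C, ZNF432 holds 22 and 61.6%, ZNF611 holds 20 and 63.6%, ZNF586 holds 16 and 58.0%, ZNF772 holds 14 and 55.6%, and ZNF415 holds 11 and 52.0%. Over the 52 windows the median was 17 CpG (from 8 to 35) and 60.8% G and C (from 48.4% to 75.6%). The 27326 windows of all RefSeq genes in the table, non-coding genes included, had medians of 10 CpG and 57.6%, and the 158 other ZNF genes of chromosome 19 had 15 and 59.6%. CpG number did not go with the level of the gene, as its Spearman correlation with the mean normalized count was 0.0029 across the 52 genes, and that of the G and C content was -0.051. These are descriptions across genes that share libraries and base composition.

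Short promoter motifs were searched as letters on both strands of the same windows, and none of them is contained in another. The 2 blocks differed in which of them they hold. The CCAAT box (CCAAT) was found in 16 of 22 distal windows (72.7%) and in 7 of 30 proximal windows (23.3%), against 33.0% of all windows and 53.2% of those of the other ZNF genes of chromosome 19. The core of the ETS factor site (CCGGAA) was found in 14 distal windows (63.6%) and in 5 proximal windows (16.7%), against 14.8% of all windows and 39.9% of those of the other ZNF genes of chromosome 19. The GC box (GGGCGG), read by factors of the Sp family, had the opposite order with 25 proximal windows (83.3%) and 13 distal windows (59.1%), against 42.2% of all windows and 64.6% of those of the other ZNF genes of chromosome 19. The core of the cyclic AMP response element (TGACGT) was rare in both blocks, with 2 proximal and 3 distal windows, and the TATA box (TATAAA) was found in 1 of the 52 windows, that of ZNF776, against 11.2% of all windows. In the sequences above, ZNF586 and ZNF772 hold a CCAAT box, ZNF432 and ZNF586 hold the ETS core, ZNF432 and ZNF772 hold the cyclic AMP response element core, and all but ZNF772 hold a GC box. Some windows are near-copies of each other, such as those of ZNF765 and ZNF845 or of ZNF419 and ZNF773. The windows of a block are therefore not separate observations. A match is a match of letters only, and no match says nothing about the factor.

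The libraries were shallow, and this limits all that follows. Total counts per sample ranged from 353430 to 3539937, with medians of 434031 in Mock cells, 655431 at d0, 1008451 at d3 and 2183741 at d28. Between 26.4% and 68.5% of them lay on mitochondrially encoded genes, with the lowest shares in Mock cells (26.4% to 27.0%) and the highest at d28 (63.6% to 68.5%). KMT2A, the source of the MLL part of the fusion genes, had normalized counts of 27.1 to 31.4 in Mock cells, 31.1 to 44.8 at d0, 54.7 to 66.6 at d3 and 67.5 to 89.7 at d28, and AFF1, the source of the AF4 part, ranged from 40.4 to 59.1 in Mock cells and from 53.9 to 79.4 in the others. Counts per gene do not separate the endogenous loci from the vector copies, so neither gene checks the labels of single samples. HEK293T markers (LIN28B, PAX2, NEFL, NEFM, EMX2, SIX2) had group means of 11.4 to 47.2, but so had a gene of another cell type, SPI1, with 18.3 to 27.0, while HBB and ALB stayed at or below 3.11. Counts per gene therefore did not check the cell type here.

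A normalized count is a count brought to a common depth, the average of the TMM-adjusted library sizes. In these units 1 read was worth between 0.528 (d28 replicate 1) and 1.85 (Mock replicate 3). The highest count of any of the 59 genes in any sample was 46 reads, and 11.0% of their 708 values were 0. Mean normalized counts over the 12 samples ran from 0.243 for ZNF415 to 18.4 for ZNF432, with a median of 3.95, and 8 genes reached 10. Of 18439 protein-coding genes, 78.0% lay above this median. A gene was tested where its average over 1 or more of the groups exceeded 2, and 53 of the 59 genes did so. The 6 that did not pass were ZNF836, ZNF610, ZNF534, ZNF808 and ZNF415 of the proximal block and ZNF671 of the distal block. A further 7 (ZNF841, ZNF816, ZNF525, ZNF761, ZNF813, ZNF547 and ZNF772) passed through 1 group only, so that for them some difference between groups was built in. Another 4 (ZNF616, ZNF880, ZNF677 and ZNF835) passed through 2 groups, so that a difference from the other groups was partly built in.

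Levels of different genes were compared per kb of the RefSeq gene span, since the interval counted per gene is not given in the sources used here. The distal block had the higher level, with a median of 0.407 normalized counts per kb against 0.109 in the proximal block. The other 181 ZNF genes of chromosome 19 had a median of 0.302, the 234 ZNF genes of other chromosomes 0.607, and all protein-coding genes 0.428. The 5 highest genes were ZNF586 (1.40), ZNF552 (1.11), ZNF432 (1.06), ZNF549 (1.01) and ZNF460 (0.753), of which ZNF432 alone is proximal. ZNF432 is known as a reader of poly(ADP-ribose) in DNA repair. The 5 lowest were ZNF415 (0.0097), ZNF534 (0.020), ZNF610 (0.024), ZNF808 (0.025) and ZNF578 (0.039), all proximal. ZNF808 is known for silencing elements of the MER11 family during the development of the pancreas. ZNF415 had 3 reads in all, 1 each in d0 replicate 3, d3 replicate 1 and d3 replicate 2, and ZNF534 had 7 reads in 5 samples.

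**Figure D1:**
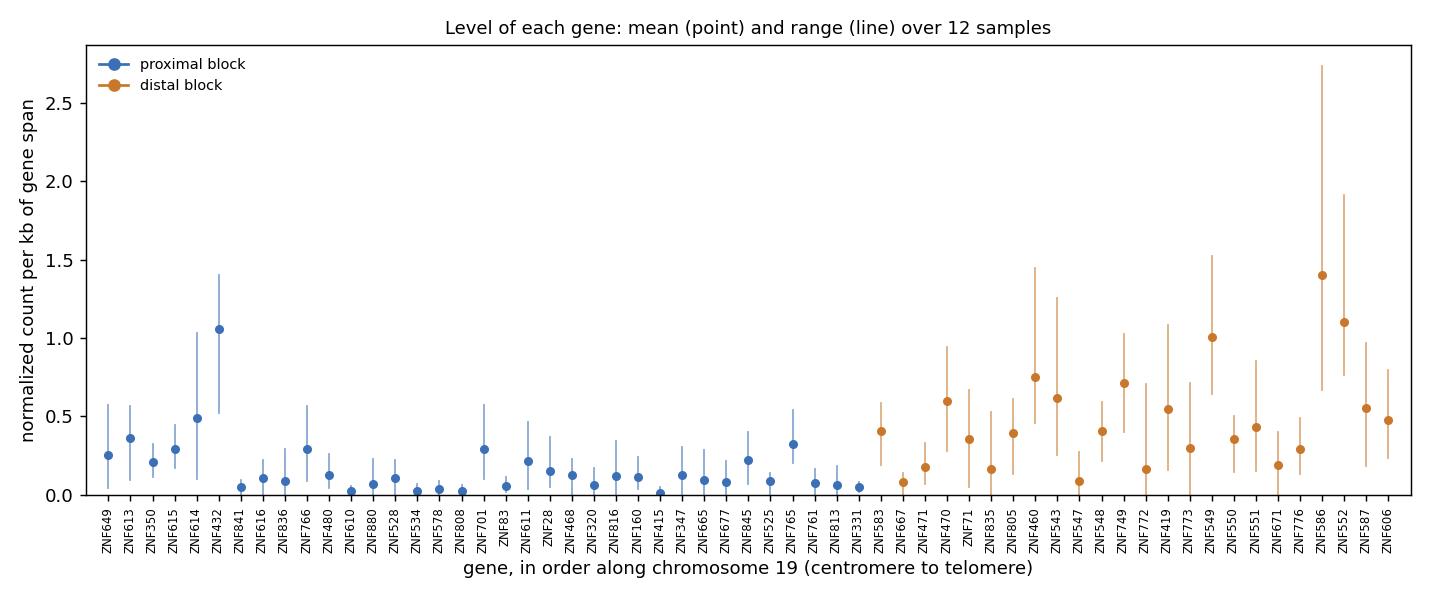
Normalized count per kb of gene span (y axis) for the 59 genes in their order along chromosome 19 (x axis), as the mean (point) and the range (line) over the 12 samples. Distal genes lie higher, with a median of 0.407 against 0.109 in the proximal block, and ZNF586 is the highest gene with 1.40.

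Taken over all 59 genes, without any filter, the signal was lower at d0 and d3 than in Mock cells. The summed normalized count was 382, 360 and 319 in Mock replicates 1, 2 and 3, and 254, 271 and 293 in the same order at d0. At d3 it was 283, 292 and 292, and at d28 it was 352, 325 and 284. All samples of d0 and d3 lay below all Mock samples, whereas the d28 samples overlapped them. Expressed as mean ± SD over the 3 samples of a group, Mock cells had 354 ± 31.6, d0 cells 272 ± 19.5, d3 cells 289 ± 5.30 and d28 cells 320 ± 34.5. This is a ratio to Mock cells of 0.771 at d0, 0.816 at d3 and 0.906 at d28. Behind it stood between 173 reads (Mock replicate 3) and 668 reads (d28 replicate 1). As the list was chosen with results of these data known, no p is given for its sum. The mitochondrial share of the counts was lowest in Mock cells (26.4% to 27.0%, against 32.8% to 68.5% in the other samples), and its part in the sums was not tested beyond the change of denominator given next.

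The value at d28 depends on what the sum is set against. As a share of all counts outside mitochondrially encoded genes, the 59 genes took 0.0804%, 0.0757% and 0.0671% in Mock replicates 1, 2 and 3 and between 0.0512% and 0.0598% in the 9 other samples, so that here d28 lay below Mock cells too, at a ratio of 0.761. On this measure other lists were also lower at d28, with 0.764 for the other ZNF genes of chromosome 19, 0.872 for all genes of chromosome 19 and 0.843 for all protein-coding genes. The 95% Wilson interval was 0.0711% to 0.0909% for Mock replicate 1 and 0.0446% to 0.0587% for d0 replicate 1, the highest and lowest samples. These intervals cover the error of counting alone, as PCR can copy 1 molecule into several reads. When the 375 nuclear copies of mitochondrial genes were left out of the denominator, which was decided after seeing the data, the ratios were 0.769 at d0, 0.793 at d3 and 0.892 at d28. Without the 10 genes with the most reads, the summed normalized count had ratios of 0.716, 0.796 and 0.934.

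The 2 blocks had like ratios to Mock cells at d0 and d3 and unlike ones at d28. In the distal block the sums (mean ± SD, n = 3) were 199 ± 16.4 for Mock cells, 154 ± 25.8 for d0, 161 ± 6.40 for d3 and 161 ± 9.10 for d28, with ratios of 0.773, 0.806 and 0.809. The lowest Mock sample (183) lay above all samples of d3 and d28, while d0 replicate 3 (184) overlapped it. For the proximal block they were 154 ± 15.6 for Mock cells, 118 ± 11.1 for d0, 128 ± 7.10 for d3 and 159 ± 25.4 for d28, with ratios of 0.767, 0.829 and 1.03. All proximal sums at d0 and d3 lay below those of Mock cells, by a narrow margin at d3 (highest 136, against 137 in Mock replicate 3), and those at d28 (133 to 183) spanned them. The difference between the blocks was not tested.

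Lower sums at d0 and d3 were shared with the zinc finger genes elsewhere on chromosome 19. The 181 other ZNF genes of this chromosome had ratios to Mock cells of 0.802 at d0, 0.863 at d3 and 0.909 at d28, and the 234 ZNF genes of other chromosomes had 0.937, 0.989 and 0.952. The 173 genes that lie between the first and the last of the 59 genes without being among them had 0.895, 1.04 and 1.05. All 1814 RefSeq genes of chromosome 19 had 0.876, 1.05 and 1.04, and all protein-coding genes 1.00, 1.03 and 1.00. A lower sum at d0 was thus present over chromosome 19 as a whole, but at d3 it was present in both zinc finger lists of the chromosome and not over the whole of it. All these ratios share the same 3 Mock samples, and 1 high or low Mock library moves them together.

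**Figure D2:**
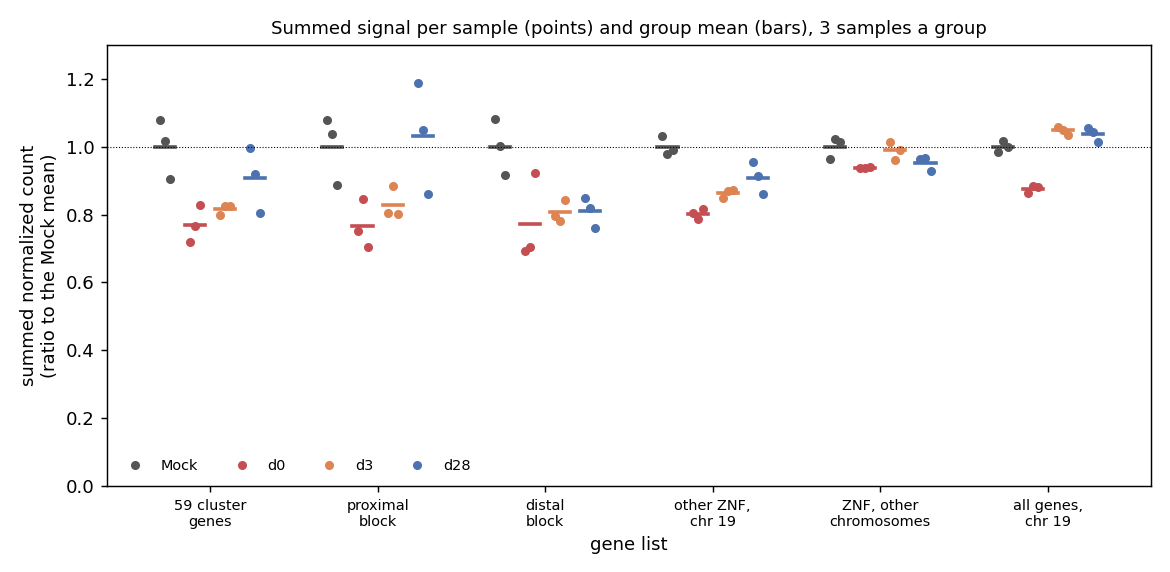
Summed normalized count of 6 gene lists (x axis) in each of the 12 samples, as a ratio to the mean of the Mock samples (y axis, points for samples, bars for group means, 3 samples a group). The 59 cluster genes lie at 0.771 at d0, 0.816 at d3 and 0.906 at d28, the other ZNF genes of chromosome 19 at 0.802, 0.863 and 0.909, and all genes of chromosome 19 at 0.876, 1.05 and 1.04.

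The comparison of d0 with Mock cells asks what MLL-AF4 alone does, but the vector backbone and its selection differ with it, so that these cannot be told apart from MLL-AF4. The median log2 fold change of the 53 tested genes was -0.48, and 40 of them lay below 0, whereas the median of all 27579 tested genes was -0.0017 with 50.1% below 0. The median was -0.40 in the proximal and -0.49 in the distal block, and -0.30 in the other ZNF genes of chromosome 19, with 113 of 159 below 0. All genes of chromosome 19 had a median of -0.20, with 902 of 1333 below 0, so that lower values were shared over the chromosome. No gene of the cluster passed an adjusted p of 0.05 in edgeR's quasi-likelihood test, as against 0.609% of all tested genes. At an unadjusted p of 0.05 there were 3 genes, all lower (9.65% of all tested genes, either direction), and DESeq2's Wald test called 0 genes and had 2 at an unadjusted p of 0.05. DESeq2's adjusted p was NA for all 53 genes, so it neither made nor lost a call. The standard error of a single gene had a median of 0.68 on the log2 scale, and a change of the median size could not be shown for a single gene at this depth.

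The 3 genes were ZNF611, ZNF606 and ZNF480, and the same 3 passed thresholds like those of the paper's signatures, a group mean above 2, an unadjusted p below 0.05 and a log2 fold change beyond 1 (4.39% of all tested genes). The paper used DESeq2, whereas the p here is edgeR's. With the p and fold change of DESeq2 2 genes passed, ZNF611 and ZNF606 (2.28% of all tested genes). ZNF611 (ENSG00000213020, chr19:52702813-52735044), whose protein binds the SVA class of retrotransposons, had normalized counts of 15.0, 9.03 and 7.38 in Mock replicates 1, 2 and 3, but 1.24, 2.84 and 3.89 at d0. Its counts were thus lower in all d0 samples than in any Mock sample, and they rested on 6 reads at d0 and 21 in Mock cells. The log2 fold change was -1.956 (standard error, SE, 0.62, 95% interval -3.17 to -0.74), and edgeR gave an adjusted p of 0.142. ZNF480 had 7.48, 6.45 and 3.69 in Mock cells and 2.49, 1.42 and 1.295 at d0, with a log2 fold change of -1.71 (SE 0.81).

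ZNF606 (ENSG00000166704, chr19:57977053-58003346), the last gene of the cluster and known as a partner of SOX9 in the control of chondrocyte genes, showed the most even pattern. Its normalized count was 20.96, 18.05 and 18.5 in Mock replicates 1, 2 and 3. The d0 samples had 6.22, 9.93 and 9.07, the d3 samples 9.24, 14.6 and 10.3, and the d28 samples 11.6, 14.1 and 8.74. All 9 samples with MLL-AF4 lay below all 3 Mock samples, which held for ZNF606 alone among the 53 genes and for 1.37% of all tested genes. No gene of the cluster lay above Mock cells in all 9 samples (1.74% of all tested genes). The log2 fold change of ZNF606 was -1.19 at d0 (SE 0.41, edgeR adjusted p = 0.217), -0.76 at d3 (SE 0.34, edgeR adjusted p = 0.359) and -0.67 at d28 (SE 0.34, edgeR adjusted p = 0.385), by the same test, and it fell short of the threshold on each day. These 3 comparisons share their Mock samples.

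In all 3 d0 samples, 5 genes were below all Mock samples (7.07% of all tested genes) and 2 were above them (7.37%). The former were ZNF611, ZNF606, ZNF480, ZNF528 and ZNF543, and the latter ZNF749 and ZNF816. ZNF749 (ENSG00000186230, chr19:57428565-57447101) differed in direction from most of the cluster, with 10.5, 10.3 and 7.38 in Mock cells, 13.7, 15.6 and 18.1 at d0, 17.7, 11.98 and 19.02 at d3, then 13.2, 12.7 and 8.74 at d28. It was above all Mock samples at d0 and d3, with log2 fold changes of 0.72 (SE 0.41) and 0.77 (SE 0.38), and overlapped them at d28. ZNF816 rested on 7 reads at d0 and 1 in Mock cells, a ratio of 6.09 with a counting interval from 0.783 to 275. It was tested through its d0 average alone, so that a higher level at d0 was built in. Next by p among the genes above 0 came ZNF614, with 1.497, 11.6 and 9.23 in Mock cells and 7.47, 7.09 and 15.5 at d0, which overlap.

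At d3, both fusion proteins were present. The vector backbone, its selection, the second transfection and blasticidin differ from Mock cells as well, and the labels give doxycycline for d3 alone. None of these can be told apart from the fusion proteins. The median log2 fold change against Mock cells was -0.34, and 39 of 53 genes lay below 0, against a median of 0.028 and 47.8% below 0 for all tested genes. It was -0.27 in the proximal block, -0.41 in the distal block and -0.23 in the other ZNF genes of chromosome 19. By edgeR's test no gene of the cluster passed the adjusted p (1.27% of all tested genes) and 6 passed the unadjusted one, 2 of them higher (11.3% of all tested genes), while DESeq2 called 0 genes, had 1 at the unadjusted p and gave NA as adjusted p for 48. The signature thresholds on edgeR's p took ZNF616 among higher genes and ZNF83 and ZNF835 among lower ones (4.18% of all tested genes), and those on DESeq2's p took 0 genes (2.37%). In all 3 samples, 4 genes were below all Mock samples (6.7% of all tested genes) and 3 above (9.84%). They were ZNF606, ZNF83, ZNF71 and ZNF480 on the lower side and ZNF616, ZNF749 and ZNF677 on the higher side. ZNF616 and ZNF677 were tested through their d3 and d28 averages only, so that a higher level at d3 was partly built in.

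ZNF616 (ENSG00000204611, chr19:52113091-52139938) had 1.497, 1.29 and 1.85 in Mock cells, which is 1 read in each sample, and 5.39, 5.99 and 5.55 at d3. It was at 1.24, 2.84 and 1.295 at d0 and at 5.28, 2.81 and 0 at d28, so that the 3 samples of d3 were the highest of all 12. The ratio of d3 to Mock cells, 21 reads against 3, was 3.73 with a counting interval from 1.11 to 19.5, and the adjusted p was 0.337 by edgeR's test. ZNF83, which is known to lack the KRAB domain, had 8.98, 5.16 and 5.54 in Mock cells and 1.54, 4.28 and 1.58 at d3, with a log2 fold change of -1.39 (SE 0.66). ZNF835 rested on 1 read at d3 and 5 in Mock cells, a ratio of 0.106 with a counting interval from 0.0023 to 0.952. The interval leaves out the spread between samples, which were 0, 5.16 and 1.85 in Mock cells and 0, 0 and 0.792 at d3 and overlap. ZNF835 was tested through its Mock and d28 averages only, so that a lower level at d3 was partly built in. ZNF816 followed among the genes above 0, again with 7 reads against 1, of which 6 lay in d3 replicate 1, and the ratio of 3.73 had an interval from 0.479 to 168.

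At d28, after the shutdown of AF4-MLL, the tested genes of the cluster no longer stood below Mock cells by their median, which was -0.03 with 29 of 53 genes below 0, against 0.032 and 47.5% for all tested genes. The vector backbone, its selection and the earlier second transfection with its drugs cannot be told apart from the fusion proteins here either. The time in culture may differ too. The median was 0.06 in the proximal and -0.33 in the distal block. The cluster median at d28 depended on the processing. Among the 7 cluster genes kept by edgeR's filterByExpr it was -0.37 (all tested genes -0.0083). With library sizes without mitochondrially encoded genes it was -0.32 (all tested genes -0.24). No gene was called by edgeR's test (1.45% of all tested genes). At an unadjusted p there were 4, all lower and 3 of them distal (12.5% of all tested genes), and DESeq2 called 0 genes with 2 at the unadjusted p and NA as adjusted p for all 53. The signature thresholds took ZNF71 and ZNF28 on edgeR's p (4.8% of all tested genes) and ZNF71 and ZNF586 on DESeq2's (2.66%). In all 3 samples, 6 genes were below all Mock samples (7.79% of all tested genes) and 1 above (9.93%). The 6 were ZNF71, ZNF586, ZNF606, ZNF552, ZNF471 and ZNF83, of which ZNF83 alone is proximal, and the gene above was ZNF160.

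ZNF71 (ENSG00000197951, chr19:56595302-56624486) had 16.5, 15.5 and 11.1 in Mock cells, 9.95, 11.4 and 19.4 at d0, 9.24, 7.70 and 7.93 at d3, then 9.50, 4.22 and 1.46 at d28. It did not separate from Mock cells at d0, and at d3 and d28 all samples lay below both Mock and d0 samples. The log2 fold change of d28 against Mock cells was -1.23 (SE 0.42, 95% interval -2.04 to -0.41), for which edgeR gave an adjusted p of 0.113, and that of d28 against d0 was -1.13 (SE 0.41, edgeR adjusted p = 0.151). Without d28 replicate 1 these were -2.09 (adjusted p = 0.0242) and -2.00 (adjusted p = 0.0482) by the same test. ZNF586 (ENSG00000083828, chr19:57769676-57780616) had 29.9, 18.1 and 12.9 in Mock cells, 14.9, 17.0 and 20.7 at d0, 17.7, 12.8 and 10.3 at d3, then 10.02, 12.7 and 7.28 at d28, and its log2 fold change of d28 against Mock cells was -0.97 (SE 0.34, edgeR adjusted p = 0.129). ZNF28 had 8.98, 2.58 and 7.38 in Mock cells and 1.58, 1.41 and 5.82 at d28, which overlap.

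Among the genes above 0 at d28 the smallest p belonged to ZNF665, ZNF765 and ZNF160. ZNF160, whose protein is known to repress the TLR4 gene, had 1.497, 6.45 and 3.69 in Mock cells, 2.49, 1.42 and 1.295 at d0, 4.62, 2.57 and 2.38 at d3, then 6.86, 7.03 and 8.74 at d28. The d28 samples were the 3 highest of the 12, and the log2 fold change was 0.84 against Mock cells (SE 0.59; 0.46 to 1.54 when 1 sample was left out), 1.98 against d0 (SE 0.68, edgeR adjusted p = 0.123) and 1.15 against d3 (SE 0.51). ZNF765, whose protein binds L1 retrotransposons, had 11.98, 6.45 and 11.1 in Mock cells and 17.4, 12.7 and 10.2 at d28, with a log2 fold change of 0.57 (SE 0.39).

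**Figure D3:**
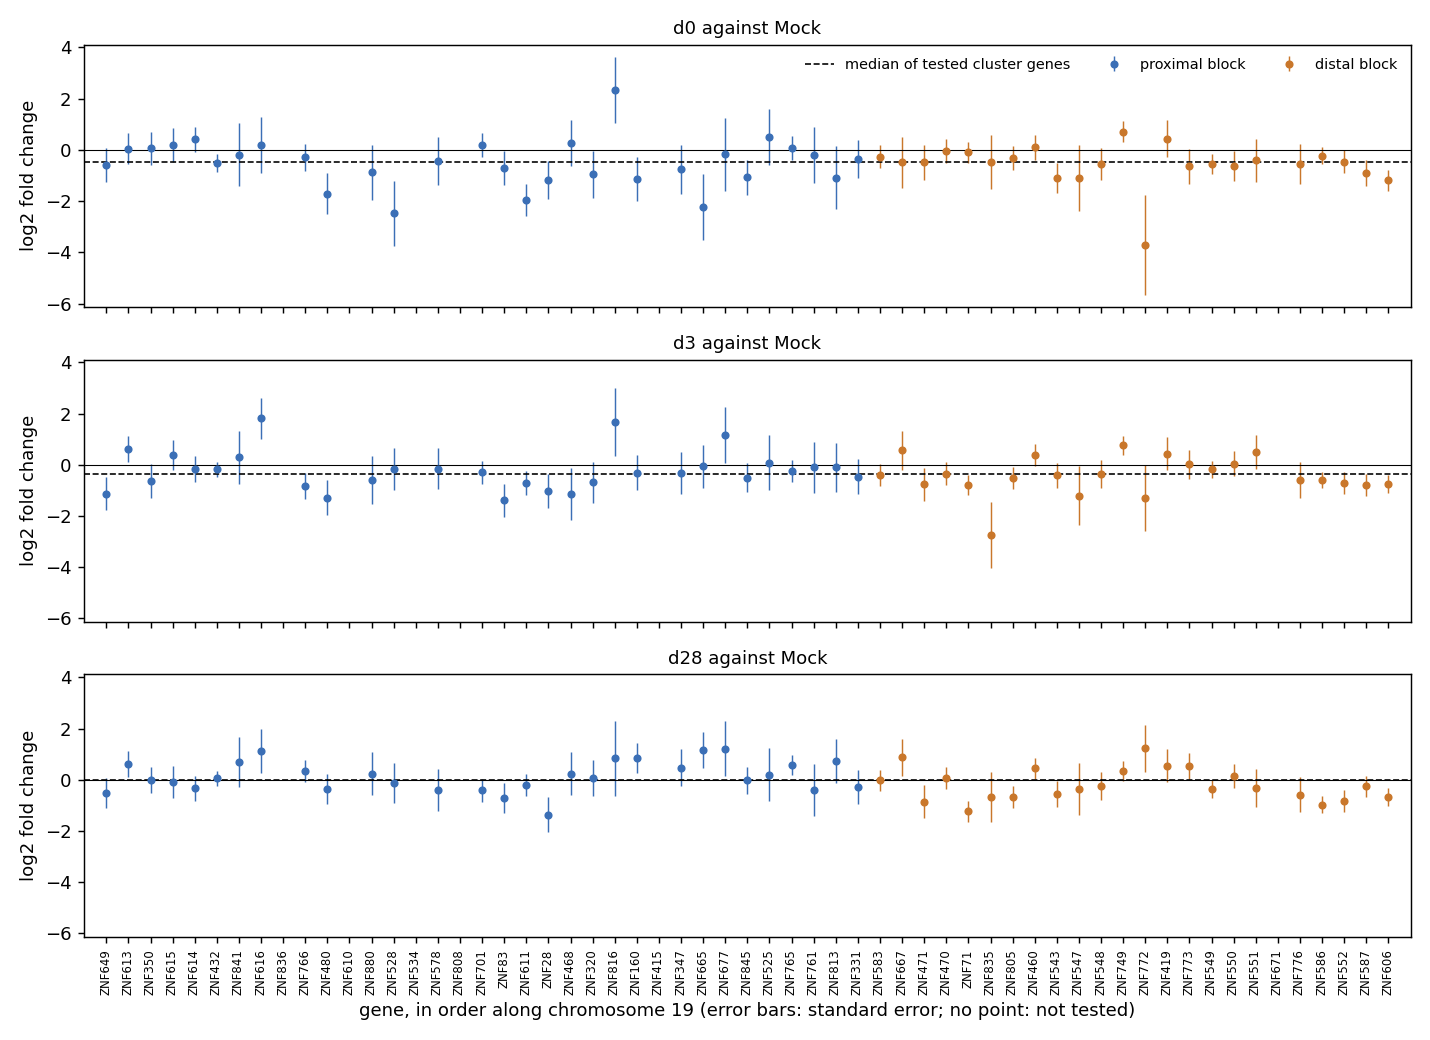
Fitted log2 fold change (y axis, error bars of 1 standard error) of each tested gene of the cluster in chromosome order (x axis) for d0, d3 and d28 against the same 3 Mock samples, with the median of the 53 genes as a dashed line. The median is -0.48 at d0, -0.34 at d3 and -0.03 at d28, where the distal block stays at -0.33. The lowest point at d0, ZNF772, had no read in any d0 sample, so its fitted value has no meaning as a size.

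The comparison of d3 with d0 addresses the induction of AF4-MLL, from which doxycycline, blasticidin and the second transfection, given at d3 and not at d0, cannot be told apart. The median was 0.16 with 32 of 53 genes above 0, against 0.024 for all tested genes. It was 0.26 for all genes of chromosome 19, with 950 of 1333 above 0, and 0.12 for its other ZNF genes, with 95 of 159 above 0. By edgeR's test no gene was called (0.91% of all tested genes), 3 passed the unadjusted p, all of them higher (11.4% of all tested genes), and DESeq2 called 0 and had 0 at the unadjusted p, with NA as adjusted p for 52. The 3 were ZNF616, ZNF611 and ZNF528, and they also passed the signature thresholds on edgeR's p (3.68% of all tested genes), while 0 genes did so on DESeq2's (2.2%). ZNF611 had 6.16, 8.56 and 4.76 at d3, all above its d0 samples, and the log2 fold change was 1.25 (SE 0.62, edgeR adjusted p = 0.413). For ZNF616, with the values given above, 21 reads stood against 4, and the log2 fold change was 1.62 (SE 0.74). The higher level of ZNF616 at d3 was partly built in here too. ZNF528 had 10 reads against 1, a ratio of 6.12 with a counting interval from 0.870 to 265. The genes below 0 with the smallest p were ZNF71, ZNF835 with 1 read at d3 and 4 at d0 (a ratio of 0.153, interval 0.0031 to 1.55), and ZNF468, with 1.24, 4.25 and 3.89 at d0 and 0, 2.57 and 0.792 at d3.

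The comparison of d28 with d0 sets cells that had once expressed AF4-MLL against cells that had not. The second transfection, doxycycline, blasticidin and the time in culture differ as well and cannot be told apart from AF4-MLL. Mitochondrial shares differed too, with 63.6% to 68.5% in d28 and 42.0% to 45.6% in d0 samples. The median was 0.32 with 36 of 53 genes above 0, against 0.036 for all tested genes, and it was 0.56 in the proximal and 0.19 in the distal block. All genes of chromosome 19 had a median of 0.27 with 997 of 1333 above 0, and its other ZNF genes 0.24 with 111 of 159 above 0. The only gene of the cluster called in any of the 6 comparisons by edgeR's test was ZNF665 (1.35% of all tested genes were called). ZNF665 (ENSG00000197497, chr19:53162424-53193358) had 0, 0 and 1.295 at d0, which is 1 read in all, and 5.28, 4.92 and 8.74 at d28, 23 reads in all. The log2 fold change was 3.40 (SE 0.98, edgeR adjusted p = 0.0448), and the ratio of 13.1 had a counting interval from 2.13 to 540. Mock cells lay between with 0, 2.58 and 5.54, and so did d3 with 0, 0.856 and 6.34, and these samples overlapped both groups. The call was lost without any single sample of d0 or d28, where the adjusted p was 0.227, 0.198 and 0.0570 without d0 replicates 1, 2 and 3 and 0.0972, 0.0651 and 0.105 without d28 replicates 1, 2 and 3. It was also lost without a filter on low counts (0.0648), edgeR's filterByExpr left the gene out, and DESeq2 gave an unadjusted p of 0.00779 and NA as the adjusted one.

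At an unadjusted p, 8 genes differed between d28 and d0, 6 higher and 2 lower (12.6% of all tested genes), and DESeq2 had 5 and called 0, with NA as adjusted p for all 53. On edgeR's p the signature thresholds took 7, the higher genes ZNF665, ZNF772, ZNF611, ZNF160, ZNF773 and ZNF528 and the lower gene ZNF71 (4.53% of all tested genes). On DESeq2's p they took 5 of these, without ZNF773 and ZNF528 (2.37%). ZNF611 had 11.1, 8.44 and 5.82 at d28, of which 2 of 3 samples lay within the range of Mock cells, and its log2 fold change against d0 was 1.75 (SE 0.57, edgeR adjusted p = 0.0920). ZNF772 (ENSG00000197128, chr19:57469586-57477566), often methylated in tumours, had no read in any d0 sample and 3.69, 5.63 and 0 at d28, at least 2.85-fold higher when d0 is set to a floor of 3 reads over the group, and the adjusted p in edgeR was 0.0751. It was tested only because its d28 average exceeded 2, so that a higher level there was built in. ZNF773 had 0, 4.25 and 6.48 at d0 and 13.2, 2.81 and 5.82 at d28, which overlap, and ZNF528 had 11 reads against 1 (ratio 6.27, interval 0.911 to 270). On the lower side ZNF71 was followed by ZNF586, with a log2 fold change of -0.74 (SE 0.34), and ZNF614, with -0.75 (SE 0.45; -0.94 to -0.28 when 1 sample was left out).

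Some further genes of the cluster are given for their known role. ZNF587, which is known to silence HERV-K elements, had 11.98, 9.03 and 14.8 in Mock cells, 6.22, 2.84 and 9.07 at d0, 6.16, 4.28 and 9.51 at d3, then 11.1, 9.14 and 7.28 at d28, so that its d0 and d3 samples overlapped Mock cells by 1 sample each. ZNF649, which binds L1 elements, ranged from 1.85 to 9.03 in Mock cells and from 0.703 to 7.39 in the other samples, within which the groups overlapped throughout. ZNF350, also called ZBRK1 and known as a partner of BRCA1, ranged from 3.69 to 6.45 in Mock cells, 3.89 to 6.22 at d0, 2.57 to 3.96 at d3 and 4.22 to 7.28 at d28, with all d28 samples above all d3 samples. ZNF331, an imprinted gene, ranged from 1.85 to 5.99 in Mock cells and from 1.42 to 5.18 in the others. ZNF671 and ZNF677, often methylated in tumours, had 16 and 23 reads over the 12 samples.

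The comparison of d28 with d3 covers the time after the shutdown. The end of doxycycline and blasticidin and the time in culture cannot be told apart from it. The median was 0.12 with 35 of 53 genes above 0, against 0.0063 for all tested genes, and it was 0.45 in the proximal block and 0.083 in the distal block. The other ZNF genes of chromosome 19 had a like median of 0.13, with 100 of 159 above 0. All genes of chromosome 19 had 0.035, with 721 of 1333 above 0. No gene was called by edgeR's test (0.37% of all tested genes), and 5 passed the unadjusted p, all higher (8.83% of all tested genes), while DESeq2 called 0, had 1 at the unadjusted p and gave NA as adjusted p for 48. The signature thresholds took ZNF766, ZNF772, ZNF160 and ZNF665 on edgeR's p (3.05% of all tested genes) and ZNF766 alone on DESeq2's (1.32%). ZNF766 (ENSG00000196214, chr19:52269587-52296046) had 2.31, 4.28 and 7.93 at d3, then 12.1, 10.6 and 8.74 at d28, with a log2 fold change of 1.16 (SE 0.41, edgeR adjusted p = 0.283), and its Mock values of 15.0, 3.87 and 7.38 spanned both. ZNF772 had 15 reads against 2, a ratio of 6.98 with an interval from 1.62 to 62.9. It was tested through its d28 average alone, so that a higher level at d28 was built in. ZNF765 had 6.93, 7.70 and 9.51 at d3, all below its d28 samples, with a log2 fold change of 0.82 (SE 0.34). On the lower side ZNF551, ZNF749 and ZNF616 had the smallest p, with log2 fold changes of -0.84 (SE 0.58), -0.42 (SE 0.30) and -0.69 (SE 0.54). Leaving out 1 sample moved that of ZNF551 between -1.22 and -0.40 and that of ZNF616 between -1.51 and -0.41.

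The corepressors through which KRAB zinc finger proteins act were followed as a list of 30 genes, with TRIM28 and SETDB1, subunits of the HUSH and NuRD complexes, heterochromatin proteins and DNA methyltransferases. All 30 were tested. Together they reached (mean ± SD, n = 3) 743 ± 41.1 normalized counts for Mock cells, 735 ± 20.8 for d0, 850 ± 23.0 for d3 and 843 ± 27.3 for d28, which is 0.989, 1.14 and 1.13 of Mock cells. The value at d28 depends on the denominator here as well. As a share of all counts outside mitochondrially encoded genes the ratios were 0.947, 1.08 and 0.954, and the d28 samples lay within the range of Mock cells. With nuclear copies of mitochondrial genes also left out they were 0.986, 1.11 and 1.12. The list's median change from Mock cells on the log2 scale was 0.10 for d0, 0.20 for d3 and 0.24 for d28. TRIM28 had means (± SD, n = 3) of 24.95 ± 11.99 for Mock cells, 32.7 ± 6.20 for d0, 36.9 ± 4.83 for d3 and 37.8 ± 2.84 for d28, with log2 fold changes against Mock cells of 0.36, 0.53 and 0.59 which did not pass (edgeR adjusted p = 0.710, 0.366 and 0.235). Single Mock libraries moved these values, to 0.067, 0.23 and 0.29 without Mock replicate 1 and to 0.86, 1.05 and 1.11 without Mock replicate 2, where the gene was called at d28 (edgeR adjusted p = 0.0482). SETDB1 had log2 fold changes of -0.30, -0.17 and 0.24, with adjusted p of 0.790, 0.867 and 0.738 by the same test.

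Of the 30 corepressor genes, edgeR's test called 0 at d0 against Mock cells (5 at an unadjusted p), 1 at d3 (4) and 0 at d28 (4), and between the days 1 for d3 against d0 (4), 0 for d28 against d0 (5) and 0 for d28 against d3 (3). Over all tested genes, between 0.37% and 1.45% were called and between 8.83% and 12.6% passed the unadjusted p. DESeq2 called 0 of them in each comparison, with 4, 1, 4, 1, 2 and 1 at an unadjusted p in the same order and between 4 and 11 adjusted p given as NA. The gene called at d3 against Mock cells was SMARCAD1, a chromatin remodeler that binds TRIM28, with 34.5 ± 2.79 against 17.3 ± 7.24 (SD, n = 3 each) and a log2 fold change of 0.93 (SE 0.27, edgeR adjusted p = 0.0443). It had the smallest p of the list at d0 too, with 0.93 (SE 0.29, edgeR adjusted p = 0.129), and HDAC1 had it at d28, with 0.68 (SE 0.26, edgeR adjusted p = 0.184), by the same test. The gene called between d3 and d0 was UHRF1, which reads hemimethylated DNA for DNMT1, with 18.6 ± 3.55 against 6.03 ± 3.40 (SD, n = 3 each) and a log2 fold change of 1.59 (SE 0.39, edgeR adjusted p = 0.0130). The call for SMARCAD1 was lost with DESeq2 (0.251), with RLE factors (0.0775), with plain library sizes with or without mitochondrially encoded genes (0.3002 and 0.105), with filterByExpr (0.0615), with only the 2 groups in the fit (0.0773), and without Mock replicate 1 (0.106) or 3 (0.319) or any d3 sample (0.0571 to 0.153). That for UHRF1 was lost without d0 replicate 2 (0.123) or 3 (0.149) or d3 replicate 1 (0.0590) or 3 (0.0674).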

How the data were processed

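ATAC-Seq libraries of 12 HEK293T samples, 3 in each of 4 groups, were analysed, with the groups taken from the sample titles. The authors deposited 1 table of raw counts per gene, whole numbers for 52889 gene entries. The submitters' processing notes name bcl2fastq, Bowtie2, HTSeq and the build GRCh38. The interval counted per gene, strand, the shift of reads to the transposase cut and the treatment of duplicates are not given in the sources used here, so promoter and gene body cannot be told apart and reads shared by near-identical zinc finger genes may be split or lost. Total counts per sample (353430 to 3539937) set the precision, and all 12 columns were mapped.

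The 27579 genes whose average normalized count exceeded 2 in any group entered the test in edgeR 4.0.16 (R 4.3.3), using TMM factors and the quasi-likelihood F test on all 12 samples, with 6 comparisons and Benjamini-Hochberg adjustment over all tested genes at 0.05. The standard error is the log2 fold change over the root of F, and 95% intervals are 1.96 standard errors on each side. Ratios of counts of at most 3 reads carry exact 95% intervals, which pool the reads of a group and cover the error of counting alone. DESeq2 1.42.0, other scalings and filters, a replicate block and leaving out each sample were alternatives. The fit was tested on simulated data. Nothing states that replicates came from separate cultures beyond the label of biological replicates, and p-values measure the spread between these samples. Pairs of samples within a group differed by a chi-square per degree of freedom of 1.05 to 1.28, little above the error of counting. This was taken over genes with at least 10 reads in the pair, without mitochondrially encoded genes and their nuclear copies. Gene positions and upstream windows are from RefSeq (GRCh38.p14). They were handled with Python 3.11.15 and pandas 2.3.3, and figures were drawn with matplotlib 3.10.9.

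The 59 genes, the lists and the comparisons were chosen with earlier results of these data known. Genes named with values are those called in any comparison, the 3 with the smallest p in each direction of each comparison, those passing the paper's signature thresholds on edgeR's p, the 5 highest and lowest by level and by level per kb, those separated from Mock cells on all days, and the untested ones. From the corepressor list the called genes, TRIM28, SETDB1 and the gene with the smallest p against Mock cells are named. Genes outside this rule were added for a known role or after their values were seen.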

Additional observations from a re-analysis of the deposited data

How the results depend on the processing

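The 54 single-gene values were recomputed under 20 settings each where a fit gave one, 1004 values in all, of which 947 kept direction and side of the threshold, 19 gained and 22 lost the call in edgeR's test or DESeq2's, and 16 changed sign. With plain library sizes, which moved the median of all tested genes at d0, d3 and d28 against Mock cells by -0.48, -0.37 and -1.34, 2, 0 and 25 of 55 cluster genes were called (4.55%, 2.29% and 57.6% of all tested genes) and the cluster medians were -0.92, -0.71 and -1.43. For d28 against d0 and d3, where all genes moved by -0.87 and -0.98, 10 and 16 were called (39.6% and 51.8% of all) and the medians were -0.60 and -0.81. Signs changed there for d0 against Mock cells in ZNF614 (-0.026) and TRIM28 (-0.085), for d28 against Mock cells in ZNF160 (-0.50), ZNF765 (-0.80), ZNF665 (-0.16), TRIM28 (-0.77), SETDB1 (-1.08), SMARCAD1 (-0.69) and HDAC1 (-0.66), and for d28 against d3 in ZNF765 (-0.19). Library sizes without mitochondrially encoded genes moved all genes by -0.24 at d28 against Mock cells, with a cluster median of -0.32, 2 cluster genes called (4.88% of all) and SETDB1 at -0.018. For d28 against d0 the cluster median was 0.079 (all genes -0.16) with 2 called (3.49% of all), and for d28 against d3 it was -0.054 (all genes -0.17). With filterByExpr 7 cluster genes were tested, with medians of -0.27, -0.48 and -0.37 against Mock cells and -0.13 for d28 against d3, and 0 called for d28 against d0. Without a filter the median at d3 against Mock cells was -0.24 and 0 were called for d28 against d0, as with DESeq2, whose adjusted p were NA. The paper's signature thresholds took 3, 3, 2, 3, 7 and 4 genes in the 6 comparisons on edgeR's p and 2, 0, 2, 0, 5 and 1 on the p of DESeq2, the paper's tool, a count added after seeing the data. Leaving out 1 sample gave 0 to 1 called for d28 against d0, 0 to 1 for d28 against Mock cells (ZNF71 without d28 replicate 1) and a median of 0.096 to 0.29 for d28 against d3. It changed the sign of ZNF614 at d0 against Mock cells without Mock replicate 1 (-0.053) or d0 replicate 3 (-0.047; range -0.053 to 1.02), of ZNF816 at d3 against Mock cells without d3 replicate 1 (range -0.23 to 4.04), of SETDB1 at d3 against Mock cells without Mock replicate 1 (range -0.25 to 0.041), and of ZNF835 at d3 against d0 without d0 replicate 3 (range -3.88 to 1.68). The cause was not tested. The share of the 59 genes as a ratio to Mock cells was 0.566, 0.639 and 0.358 with all counts as the denominator, and at d28 it was 0.892 without nuclear copies of mitochondrial genes and 0.906 as a summed normalized count. The replicate numbers did not pair the samples (correlations of deviations from -0.152 to 0.0821, with 0 of 18 pairs above 0.1). With the replicate block 0, 0, 0, 0, 1 and 0 genes were called in the 6 comparisons, with medians of -0.46, -0.38, -0.084, 0.16, 0.31 and 0.15. A level per exonic length was not run, because the tables used here give no exonic length. Depth limits all single-gene statements, as the median gene had 44 reads over the 12 samples.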
